A study of Mus musculus with 5 samples.

Results

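Klf1, Gata1, Epor, Blvrb, Car1, Car2, Tfrc, Alad, Urod and Fech are 10 genes of the erythroid programme: 2 transcription factors, the receptors for erythropoietin and transferrin, and enzymes of haem and carbon dioxide chemistry. They were taken by gene symbol, and all 10 were among the 11352 genes of the table. The RNA came from mouse haematopoietic stem and progenitor cells (HSPCs) sorted for KIT and SCA1 on the surface and for the absence of lineage markers and CD135. There were 2 libraries from mice with a Cux1 knockdown (Cux1-low) and 3 from mice with the Cux1 knockdown and NrasG12D, an oncogenic form of the RAS gene Nras (Cux1-low;NrasG12D, called NrasG12D here). The mice of both groups had been given pI:C, a synthetic double-stranded RNA, and doxycycline over 4 weeks. The Cux1 knockdown and both agents are thus shared by the groups, and the comparison concerns only what differs with NrasG12D. The labels give neither the promoter that drives the knockdown, the number of its lines, the age of the mice, nor whether each library came from 1 animal. The p-values therefore measure the spread between these libraries, part of which may be technical.

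Red cell formation starts when a multipotent progenitor turns on the zinc finger factor GATA1 and, with it, the factor KLF1, which binds CACCC-type sequences. These factors act with TAL1, LMO2 and LDB1 on the genes for haem synthesis, iron uptake, the red cell membrane and globin, while erythropoietin, acting through its receptor and JAK2 and STAT5, keeps the committed cells alive. Haem is built from glycine and succinyl-CoA by a chain of enzymes that starts and ends in the mitochondrion, and its last step inserts iron. In stem and early progenitor cells, low levels of these transcripts are usually read as erythroid priming, and higher levels mark cells further along that path.

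Promoter sequences are shown for Blvrb, Klf1, Urod, Epor and Gata1, the 5 genes with the smallest p between the groups, because these genes shared a pattern across the libraries and 2 of them encode factors that bind such sequences. Each is the stretch up to 150 bases before a RefSeq start site (build GRCm38.p6, the sequence of mm10), 5′ to 3′ on the gene's strand, cut off at the first annotated exon base. Capitals mark a GATA motif (AGATAA, also with T as the first letter, G as the last, or both) or a CACCC motif (CCNCNCCC), searched on both strands. CACCC matches may overlap one another, and no GATA match overlapped a CACCC match.
Klf1 (chr8:84901832-84901927, plus strand): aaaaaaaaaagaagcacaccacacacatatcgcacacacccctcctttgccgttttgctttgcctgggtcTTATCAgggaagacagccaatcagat
Gata1 (chrX:7967911-7968060, minus strand): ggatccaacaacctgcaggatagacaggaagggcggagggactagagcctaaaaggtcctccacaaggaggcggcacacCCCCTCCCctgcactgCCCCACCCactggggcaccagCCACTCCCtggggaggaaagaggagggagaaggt
Epor (chr9:21963577-21963726, minus strand): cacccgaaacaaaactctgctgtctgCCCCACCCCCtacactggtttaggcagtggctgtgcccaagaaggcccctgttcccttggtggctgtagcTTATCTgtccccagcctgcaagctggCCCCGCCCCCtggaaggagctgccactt
Urod (chr4:116994414-116994563, minus strand): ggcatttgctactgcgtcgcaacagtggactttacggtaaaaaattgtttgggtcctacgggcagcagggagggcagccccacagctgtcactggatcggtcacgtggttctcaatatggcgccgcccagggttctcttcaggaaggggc
Blvrb (chr7:27447828-27447977, plus strand): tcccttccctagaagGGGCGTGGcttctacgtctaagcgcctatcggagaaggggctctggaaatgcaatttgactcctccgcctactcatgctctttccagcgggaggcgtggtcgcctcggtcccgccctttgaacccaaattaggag

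The Klf1 stretch held a GATA match on the reverse strand, 80 to 75 bases before the start site. The Epor stretch held a GATA match 54 to 49 bases before the start, flanked on both sides by overlapping CACCC matches. Gata1 had 3 CACCC matches and Blvrb 1, and the Urod stretch had neither motif. RefSeq windows of 7 of the 10 genes were searched: Car1 and Car2 had no entry, and Fech was not searched. Within 150 bases upstream, 2 of these 7 (Klf1 and Epor) had a GATA match and 4 (Alad, Blvrb, Epor and Gata1) a CACCC match, counting any annotated start. Counted in the same way, 18.4% of all 27018 genes with such windows had a GATA match and 40.9% a CACCC match, and over the 32841 single windows the shares were 16.0% and 38.1%. A match of letters is a description of the window and does not show binding. The Gata1 window lies inside the annotated span of the gene, which has another start farther upstream.

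The libraries held 16489711 to 20262498 reads over the listed genes, and each value of the 10 genes rested on 1425 to 81939 reads. Levels are given as normalized CPM, the reads of a gene relative to the size of its library, in the authors' scaling. NrasG12D library 3 stood apart from NrasG12D libraries 1 and 2 over all genes: on the first principal component, with 73.8% of the variance, the scores were -32.8 and -30.1 for Cux1-low, 29.1 and 38.0 for the first pair of NrasG12D libraries, and -4.16 for library 3. Results are therefore given with and without that library. The knockdown itself has no library without it to be compared with here. The sort's own genes fit the label in part. Kit was abundant in every library but lower in NrasG12D, without overlap. It had 1359 and 1373 normalized CPM in Cux1-low and 477, 569 and 816 in NrasG12D libraries 1, 2 and 3. Ly6a, which encodes SCA1, was detected (14.2 to 48.7). Flt3 mRNA, which encodes the CD135 that the sort selected against, was also present (165 to 388). Whether the sorted cells were alike in the groups was not tested.

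All 10 genes had a higher mean in the NrasG12D libraries, from 1.30-fold for Alad to 2.21-fold for Blvrb, but 0 of 10 passed limma's test over all genes (adjusted p from 0.0769 to 0.413). By the same rule 0.255% of all genes were called higher. In bulk RNA, more cells of a type and more RNA of a gene per cell cannot be told apart. At an unadjusted p under 0.05, 7 of 10 were higher, against 14.8% of all genes. In 9 of 10, every NrasG12D library lay above both Cux1-low libraries, against 26.5% of all genes, and Alad was the exception. The median log2 fold change of the 10 was 0.78, beside -0.0030 over all genes, of which 49.7% had a positive sign. Without NrasG12D library 3, all 10 rose, against 18.0% of all genes called higher in that fit, and the median was 0.99. Library 3 was left out after its values were seen, and it was the lowest NrasG12D library in all 10 genes. Leaving it out therefore had to raise each of their fold changes. In the authors' deposited table, 7 of 10 were higher at an adjusted p under 0.05, all but Car2, Fech and Alad, against 6.97% of all genes. Its log2 fold changes ran from 0.38 for Alad to 1.15 for Blvrb.

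**Figure D1:**
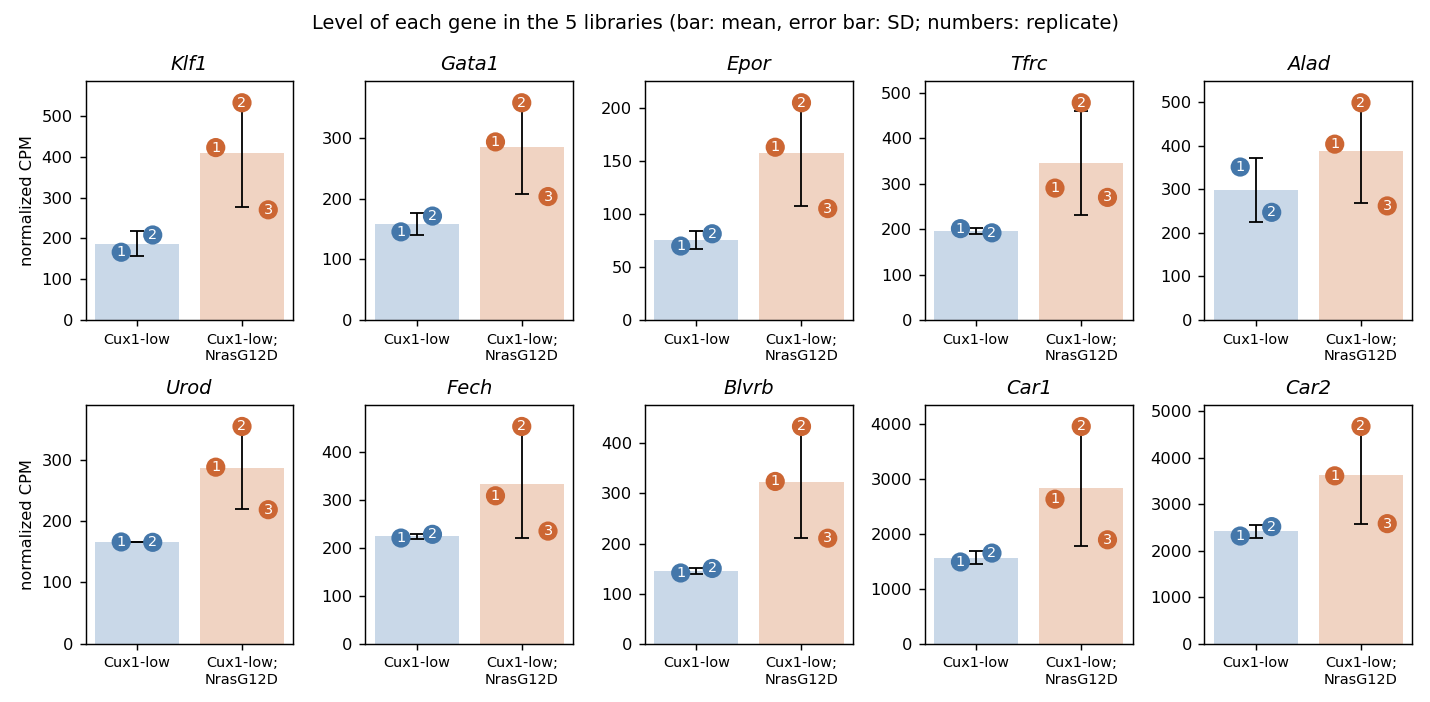
Normalized CPM (vertical axes, each from 0) of the 10 genes in the 2 Cux1-low libraries (blue) and the 3 NrasG12D libraries (orange); bars are means, error bars SDs, and the number in a point is the replicate. NrasG12D library 2 is the highest point and library 3 the lowest NrasG12D point in all 10 panels, and only for Alad does an NrasG12D point fall below a Cux1-low point.

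Klf1 encodes the erythroid Krüppel-like factor (chromosome 8, 84901928 to 84905291, plus strand). Cux1-low libraries 1 and 2 had 166 and 209 normalized CPM, and NrasG12D libraries 1, 2 and 3 had 423, 533 and 270 (the order of libraries used throughout). The groups did not overlap, and library 3 lay 1.30-fold above the higher Cux1-low library. NrasG12D minus Cux1-low gave a log2 fold change of 1.08 (SE 0.27, 95% confidence interval 0.43 to 1.72, limma adjusted p = 0.0774), and without library 3 it was 1.35 (limma adjusted p = 0.00236).

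Gata1 (chromosome X, 7959260 to 7978071, minus strand) encodes the master factor of erythroid and megakaryocytic maturation. Its levels were 146 and 172 normalized CPM in Cux1-low and 294, 359 and 204 in NrasG12D. Library 3 was again the lowest NrasG12D value, 1.19-fold above the higher Cux1-low library. This amounted to a log2 fold change of 0.81 (SE 0.23, 95% confidence interval 0.27 to 1.35, limma adjusted p = 0.0863).

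Other factors that work with this pair did not share 1 sign. Of 18 erythroid transcription factors and partners besides Klf1 and Gata1, 9 were positive and 9 negative in sign and 0 passed over all genes, with a median of -0.0031 in log2 fold change. Means ± SD of other genes are over the 2 Cux1-low and then the 3 NrasG12D libraries, in normalized CPM. Zfpm1, which encodes the GATA1 partner FOG1, was at 166 ± 13.9 (SD, n = 2) against 247 ± 35.5 (SD, n = 3) normalized CPM, and E2f2, which encodes a cell cycle factor of erythroblasts, at 28.0 ± 4.28 against 62.3 ± 29.4. E2f4, of the same family, was at 238 ± 16.4 against 354 ± 76.8, and Zbtb7a, which encodes the globin repressor LRF, at 115 ± 6.01 against 142 ± 5.32. On the negative side, Lmo2, the bridging partner of TAL1 and GATA1, was at 665 ± 14.6 against 523 ± 33.2, and Hhex, a homeobox gene of early progenitors, at 221 ± 8.45 against 150 ± 28.9. Over the 18, every NrasG12D library was above both Cux1-low libraries in 7 and below both in 5, beside 26.5% and 27.0% of all genes. Without NrasG12D library 3, 6 of the 18 rose and 5 fell, beside 18.0% of all genes called higher and 19.4% called lower in that fit.

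Epor encodes the erythropoietin receptor (chromosome 9, 21958897 to 21963506, minus strand). Cux1-low had 69.9 and 81.4 normalized CPM of it, and NrasG12D 163, 205 and 105. All NrasG12D values were above both Cux1-low values. The log2 fold change was 1.0 (SE 0.26, 95% confidence interval 0.38 to 1.62, limma adjusted p = 0.0802).

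Most of the rest of the erythropoietin pathway had the opposite sign. Of 13 other genes of the pathway, 12 were negative in sign and 0 passed over all genes, with a median of -0.24 in log2 fold change. Cish, a feedback inhibitor induced by STAT5, had 32.3 and 23.4 normalized CPM in Cux1-low and 7.74, 8.62 and 12.6 in NrasG12D. The groups did not overlap, and the log2 fold change of -1.45 (SE 0.25) just missed the threshold (limma adjusted p = 0.0508). Its relatives Socs2 and Socs3 were at 5.91 ± 1.76 against 1.70 ± 0.399 and at 32.9 ± 5.35 against 15.7 ± 9.34. Kit, which encodes the receptor for stem cell factor and serves the same cells, was at 1366 ± 10.1 against 621 ± 175. The phosphatase gene Ptpn6 and the adaptor gene Sh2b3, both inhibitors of receptor signals, had log2 fold changes of -0.24 and -0.25. The groups lay apart in 8 of these 13, all with NrasG12D lower, beside 27.0% of all genes. Without NrasG12D library 3, 7 of these 13 fell and 0 rose, while Epor rose. In that fit 19.4% of all genes were called lower and 18.0% higher.

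Tfrc encodes transferrin receptor 1, the main route of iron into erythroid cells (chromosome 16, 32608920 to 32632794, plus strand). It had 201 and 192 normalized CPM in Cux1-low and 291, 479 and 270 in NrasG12D. For this gene library 1 lay close to library 3, and library 2 stood above both. Its log2 fold change was 0.77 (SE 0.24, 95% confidence interval 0.20 to 1.33, limma adjusted p = 0.0972).

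Of 14 other genes measured for iron uptake and storage, 11 had a positive sign, with a median log2 fold change of 0.34. One fell over all genes, where 0.872% of all genes were called lower: Ncoa4, the cargo receptor that delivers ferritin for breakdown, had 30.9 and 32.9 normalized CPM in Cux1-low and 12.8, 12.0 and 16.3 in NrasG12D (log2 fold change -1.17, SE 0.18, limma adjusted p = 0.0430). Slc11a2 and Steap3, which move and reduce the iron that TFRC brings into endosomes, were at 77.6 ± 6.28 against 129 ± 34.6 and at 58.7 ± 10.5 against 110 ± 35.8. The iron-sulphur cluster genes Glrx5 and Iscu had log2 fold changes of 0.78 and 0.38, and Pcbp1, an iron chaperone gene, 0.36. None of these 5 passed. Of the 14, 9 had every NrasG12D library above both Cux1-low libraries and 1 had every one below, beside 26.5% and 27.0% of all genes. Without NrasG12D library 3, 10 of the 14 rose and 1 fell, beside 18.0% and 19.4% of all genes.

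Alad, Urod and Fech are the haem enzymes among the 10 genes, and their confidence intervals overlapped. Alad encodes the enzyme that joins a pair of aminolevulinic acid molecules into porphobilinogen (chromosome 4, 62509169 to 62519918, minus strand). It had 351 and 247 normalized CPM in Cux1-low and 403, 498 and 262 in NrasG12D. Library 3 fell between the Cux1-low libraries, so the groups overlapped. The log2 fold change of 0.35 (SE 0.28, 95% confidence interval -0.31 to 1.01, limma adjusted p = 0.413) was the smallest of the 10.

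Urod encodes uroporphyrinogen decarboxylase, a cytosolic step in the middle of the pathway (chromosome 4, 116989965 to 116994413, minus strand). It had 166 and 165 normalized CPM in Cux1-low and 288, 354 and 218 in NrasG12D. The 2 Cux1-low values were nearly equal, and all NrasG12D values were above them. Its log2 fold change was 0.76 (SE 0.19, 95% confidence interval 0.30 to 1.22, limma adjusted p = 0.0784).

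Fech encodes ferrochelatase, which inserts iron in the last step (chromosome 18, 64452914 to 64490251, minus strand). Its values were 220 and 228 normalized CPM in Cux1-low and 308, 453 and 235 in NrasG12D. Library 3 lay only 1.03-fold above the higher Cux1-low library. The log2 fold change was 0.51 (SE 0.25, 95% confidence interval -0.08 to 1.11, limma adjusted p = 0.207).

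Of 5 other enzyme genes of haem synthesis, 4 had a positive sign and 0 passed over all genes. Uros and Cpox, which act just before and just after Urod, were at 57.8 ± 1.25 against 101 ± 30.2 and at 254 ± 10.2 against 501 ± 163 normalized CPM. In both genes every NrasG12D library was above both Cux1-low libraries, and without library 3 both rose. Of the genes for the starting step, Alas1, the form used in all tissues, was at 168 and 260 against 328, 256 and 172 (log2 fold change 0.22, and 0.47 without library 3). The erythroid form Alas2 was low in every library, at 12.3 and 8.71 against 16.9, 24.8 and 11.1 (log2 fold change 0.64, and 0.92 without library 3). The groups overlapped for both, and Alas2 rose without library 3. Ppox, the step before Fech, was at 104 and 124 against 116, 108 and 95.3, with a log2 fold change of -0.10 (limma adjusted p = 0.634, and adjusted p = 0.901 without library 3). Over these 8 enzymes, 6 rose without NrasG12D library 3, beside 18.0% of all genes, and Alas1 and Ppox did not pass.

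**Figure D2:**
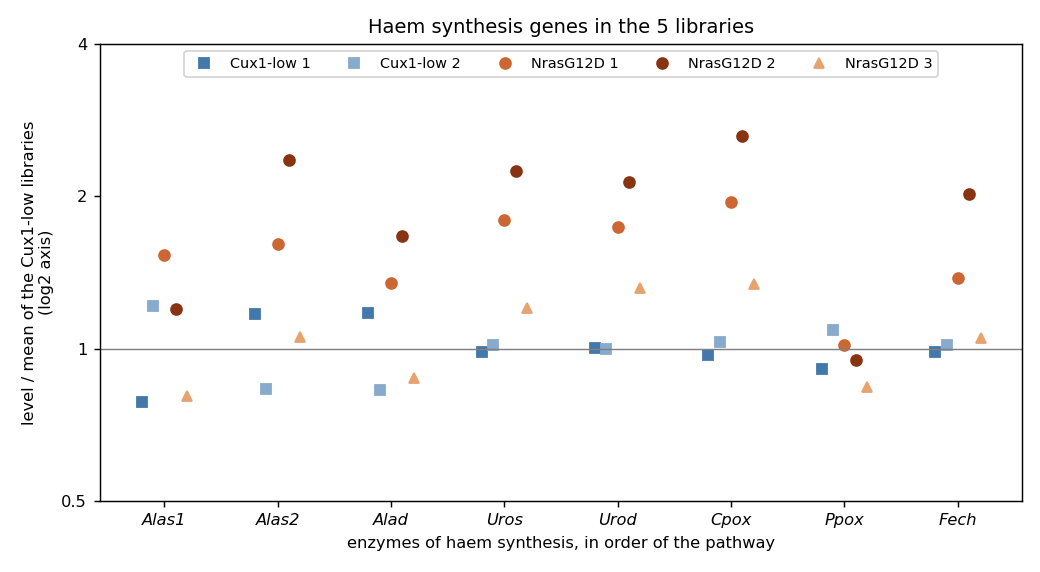
Level of 8 haem synthesis genes, in pathway order from left to right, divided by the mean of its 2 Cux1-low libraries (log2 axis); squares are Cux1-low libraries, circles NrasG12D libraries 1 and 2, and triangles NrasG12D library 3. The circles sit highest at Cpox, near 1 at Ppox, and the triangles lie above both squares at Uros, Urod, Cpox and Fech.

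Most, but not all, genes of haem and mitochondrial iron transport and haem breakdown had a positive sign. Of 13 genes of haem and mitochondrial iron transport and haem breakdown besides Blvrb, 9 had a positive sign, and the median log2 fold change was 0.38. One, Hebp1, which encodes a haem-binding protein, rose over all genes, where 0.255% of all genes were called higher. It had 5.25 and 4.77 normalized CPM in Cux1-low and 51.4, 68.2 and 29.3 in NrasG12D (limma adjusted p = 0.0260). Slc25a38, which brings glycine into the mitochondrion for the starting step, was at 53.6 ± 10.8 against 118 ± 35.8. Tmem14c and Abcb10, which serve the late mitochondrial steps, were at 181 ± 4.88 against 364 ± 115 and at 97.1 ± 0.361 against 179 ± 45.7. Abcb6 and Slc25a39 had log2 fold changes of 0.82 and 0.34. The 4 genes with a negative sign were Hmox2 (-0.34), Mfsd7b (also called Flvcr1, -0.17), Pgrmc1 (-0.11) and Slc48a1 (-0.11). Apart from Hebp1 none of those named passed. Of the 13, 8 had every NrasG12D library above both Cux1-low libraries and 3 had every one below, beside 26.5% and 27.0% of all genes. Without NrasG12D library 3, 8 of the 13 rose and 1 fell, beside 18.0% and 19.4% of all genes.

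Blvrb encodes biliverdin reductase B, a flavin reductase abundant in red cells (chromosome 7, 27447978 to 27466144, plus strand), and it had the largest ratio of the 10. It had 141 and 150 normalized CPM in Cux1-low and 324, 434 and 211 in NrasG12D. Library 3 lay 1.40-fold above the higher Cux1-low library, the widest such gap of the 10. The log2 fold change was 1.08 (SE 0.27, 95% confidence interval 0.43 to 1.73, limma adjusted p = 0.0769).

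Car1 and Car2 encode cytosolic carbonic anhydrases, which convert carbon dioxide and water into bicarbonate. They lie head to head on chromosome 3 (14766216 to 14808368, minus strand, and 14886273 to 14900770, plus strand), 77.9 kb apart. Car1 had 1489 and 1651 normalized CPM in Cux1-low and 2633, 3958 and 1893 in NrasG12D. The difference on the log2 scale was 0.78 (SE 0.29, 95% confidence interval 0.10 to 1.47, limma adjusted p = 0.127). Car2, the most abundant of the 10 before exon length is considered, was at 2318 and 2521 against 3613, 4676 and 2584. Its difference was 0.54 (SE 0.25, 95% confidence interval -0.04 to 1.13, limma adjusted p = 0.183). For Car2 library 3 was 1.03-fold above the higher Cux1-low library, and for Car1 1.15-fold. Car3, the family member that lies between them (14863512 to 14872523), was at 10.3 and 8.81 against 6.98, 6.22 and 5.47, with no overlap and a negative log2 fold change of -0.55 (limma adjusted p = 0.121). Car13, on the other side of Car1, was at 6.90 ± 0.0483 against 5.92 ± 1.87. Of the 5 other measured members of the family (Car3, Car7, Car9, Car12 and Car13), 4 had a negative sign and 0 passed in either fit.

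**Figure D3:**
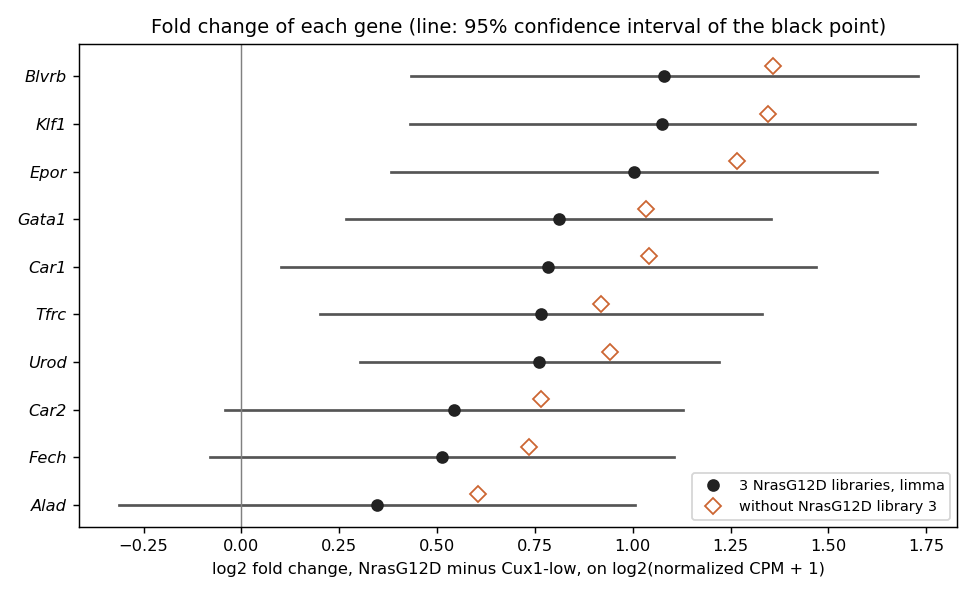
Log2 fold change of each gene on the log2(normalized CPM + 1) scale, NrasG12D minus Cux1-low: black points use all 5 libraries and carry their 95% confidence interval, and open diamonds leave out NrasG12D library 3. The intervals of Car2, Fech and Alad include 0. Each diamond lies to the right of its point, as it must where library 3 is the lowest NrasG12D value.

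NrasG12D library 2 was highest, library 1 next and library 3 lowest of the group in 10 of 10 genes, and in 9 of 10 all of these were above both Cux1-low libraries. That full order held for 11.2% of all genes. Measured as a percentage of the distance from the mean of Cux1-low to that of the other NrasG12D libraries, library 3 had a median position of 27.1% over the 10 genes. The position was highest for Tfrc (39.1%) and Urod (34.0%), between 18.7% and 28.5% for Car1, Gata1, Epor, Blvrb and Klf1, and lower for Car2 (9.58%), Fech (6.79%) and Alad (-24.5%). Without library 3 the log2 fold changes were 1.36 for Blvrb, 1.35 for Klf1, 1.27 for Epor, 1.04 for Car1 and 1.03 for Gata1. They were 0.94 for Urod, 0.92 for Tfrc, 0.77 for Car2, 0.74 for Fech and 0.61 for Alad, with limma adjusted p from 0.00207 for Blvrb to 0.0391 for Alad.

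Levels of different genes were compared per kb of annotated exon (normalized CPM per kb). In the Cux1-low libraries Car1 (1258 ± 91.8, SD, n = 2) and Car2 (999 ± 59.2) were far above the rest. Alad (160 ± 39.3) and Klf1 (123 ± 19.6) followed and overlapped, as did Gata1 (65.1 ± 7.57) and Urod (63.9 ± 0.162). Blvrb (52.4 ± 2.30), Epor (38.0 ± 4.12), Tfrc (31.8 ± 1.06) and Fech (16.2 ± 0.396) came next in that order without overlap. In the NrasG12D libraries Klf1 (267 ± 86.2, SD, n = 3) stood above Alad (207 ± 63.7) in each of the 3 libraries, and Gata1 (117 ± 31.9), Blvrb (116 ± 40.1) and Urod (111 ± 26.2) could not be separated. The annotated exons of Fech span 13.8 kb, so its value per kb depends on which transcript ends the cells use.

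Genes of maturing red cells were measured beside the 10. Of 26 measured (of 33 in the list), 24 were positive in sign and 0 passed over all genes, with a median of 1.01 in log2 fold change. Globin genes were not analysed here. The membrane skeleton genes Sptb, which encodes beta spectrin, and Ank1, which encodes ankyrin, were at 57.9 ± 17.7 against 167 ± 78.3 normalized CPM and at 25.9 ± 2.60 against 66.8 ± 28.1. Rhd, the Rhesus antigen gene, was at 147 and 161 in Cux1-low and at 411, 591 and 246 in NrasG12D, and the water channel gene Aqp1 at 189 and 263 against 575, 941 and 376. Tspan33 and Dmtn, which encode a tetraspanin of erythroid progenitors and the actin bundler dematin, had log2 fold changes of 1.20 and 1.41, the latter from a low 2.77 normalized CPM. Of the 26, 17 had every NrasG12D library above both Cux1-low libraries and 1 had every one below, beside 26.5% and 27.0% of all genes. Without library 3, 17 of the 26 rose and 0 fell, beside 18.0% and 19.4% of all genes. The summed level of the 26 genes was 2212 and 2240 in Cux1-low and 3649, 5580 and 2804 in NrasG12D, the same order of libraries as for the 10 genes.

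**Figure D4:**
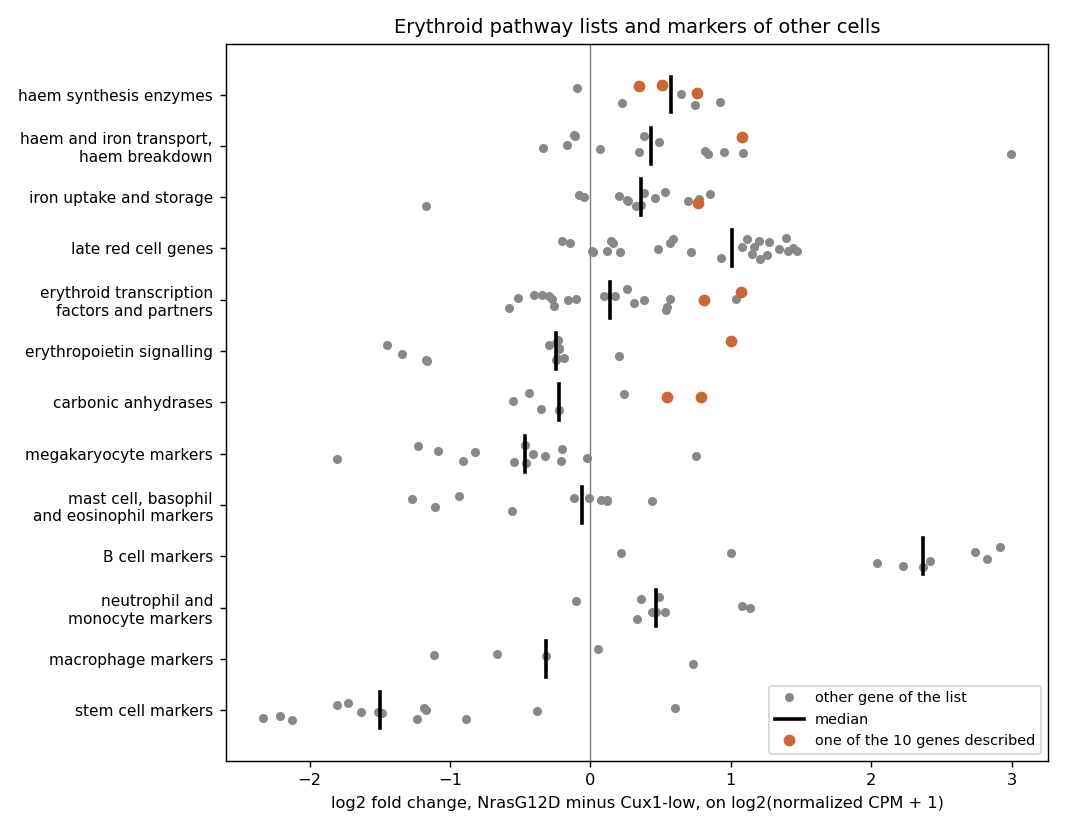
Log2 fold change on the log2(normalized CPM + 1) scale (horizontal axis) of every measured gene in each list; orange points are genes among the 10, grey points the others, and black lines list medians. The lists of late red cell genes, haem synthesis and iron lie mostly right of 0, while Epor stands apart from the other erythropoietin signalling genes, which lie mostly left of it.

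Markers of other cells were measured in the same libraries, and their part in the values of the 10 genes was not tested. Of 14 stem cell markers measured (of 15 in the list), 13 had a negative sign and 2 (Ndn and Gprasp2) fell over all genes, while 12 of 14 fell without library 3. Of all genes, 0.872% were called lower, and without library 3 19.4% were called lower and 18.0% higher. These shares also stand beside the counts of the next lists. Their summed level was 1212 to 1239 normalized CPM in Cux1-low and 375 to 770 in NrasG12D. Of 14 megakaryocyte markers measured (of 16), a fate that also needs GATA1, 13 had a negative sign and 0 passed, while 9 of 14 fell without library 3. The sums were 1849 to 1887 against 821 to 1646. Itgb3 was at 99.3 ± 2.26 against 43.8 ± 16.8 and Vwf at 71.4 ± 16.4 against 39.4 ± 2.43. Of 10 mast cell, basophil and eosinophil markers measured (of 12), a fate that also depends on GATA factors, 4 had a positive and 6 a negative sign. The positive ones were Cpa3, Ms4a2, Mcpt8 and Prss34. Epx and Prg2 fell and 8 did not pass, while 3 of 10 (Epx, Prg2 and Prg3) fell and 0 rose without library 3. The sums of this list overlapped, at 1536 to 2544 against 1337 to 3023.

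The 9 B cell markers measured (of 12) all had a positive sign and 0 passed, 9 of 9 rose without library 3, and their sum was 61.5 and 85.3 normalized CPM in Cux1-low and 279, 572 and 64.8 in NrasG12D. Library 3 thus lay at the Cux1-low level there, while it lay above both Cux1-low libraries for 9 of the 10 erythroid genes. Of 9 neutrophil and monocyte markers measured (of 16), 8 had a positive sign and 0 passed, while 7 of 9 rose without library 3. For the counts of this paragraph without library 3, the shares over all genes were 18.0% called higher and 19.4% lower. The sums were 7842 and 10994 against 20371, 13701 and 8459. In that list library 1 was the highest and library 3 within the Cux1-low range, an order that differs from that of the 10 genes. For 5 macrophage markers measured (of 12), the sum was 57.1 to 60.4 against 46.0 to 64.5, 0 passed, and 1 rose and 2 fell without library 3. Every gene of the table exceeded 1 normalized CPM in 3 or more libraries, so no marker measured here could be at 0 in all of them. The other markers of each list were not analysed here.

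Outside the 10, the 5 genes closest to their median profile over the 5 libraries were Stard10, Amigo2, Minpp1, Uros and Ubac1. Closeness was the root mean square difference of centred log2 values, 0.0376 for Stard10 to 0.0580 for Ubac1. Among the 10 genes it ran from 0.0680 for Car1 to 0.286 for Alad. Stard10, a lipid transfer protein gene, had 118 and 126 normalized CPM in Cux1-low and 220, 308 and 161 in NrasG12D. Uros is the haem enzyme gene described above. It was picked by its profile, but the median profile already includes the haem enzyme genes Alad, Urod and Fech.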

How the data were processed

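Polyadenylated RNA of sorted mouse HSPCs was sequenced, per the labels' protocols, in 2 Cux1-low and 3 NrasG12D libraries. The submitters' processing notes name TopHat, HTSeq, edgeR and the builds hg19 and mm10, without roles. The authors' deposited signal values, headed CPM per the file headers, sum to 971746 to 1026780 per library and are called normalized CPM. Every value was a whole multiple of 1 step per library (tolerance 0.01 of a step), which gave the read totals, but the low values were too few for a count test. The deposited table also holds the authors' log2 fold change, likelihood ratio score and p-value per gene. All 11352 listed genes exceeded 1 in 3 or more libraries, so a gene above 1 in Cux1-low alone could not be listed.

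Groups were compared with limma 3.58.1 (R 4.3.3) with a trended variance on log2(normalized CPM + 1), with Benjamini-Hochberg adjustment over all genes and a threshold of 0.05. Requiring 1 or more in 2 or more libraries removed no gene. The fit was tested on simulated data with equal noise in every gene and library. That simulation held no outlying library such as NrasG12D library 3. The members and lists were chosen with earlier results of these data known. Some genes of the lists are not reported here and were left out of the lists' counts. Named genes were the 10, up to 6 non-members per pathway list and up to 3 per other list, by smallest p, and the 5 closest profiles. Other pseudocounts, filters, scalings and weights, left-out libraries and a replicate block were tried. Coordinates and exon lengths are those of GENCODE M21 (mm10), in which no exon of the 10 genes overlaps one of another gene. Whether counting used strand is not stated in the labels. Python 3.11.15, pandas 2.3.3 and numpy 2.4.6 were used.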

Additional observations from a re-analysis of the deposited data

How the results depend on the processing

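All 10 genes kept a positive sign under all 15 alternatives, and the median of the 10 stayed between 0.55 and 0.99. Not all of these could change a sign. The filters and robust limma left the fold changes of the 10 as they were. The replicate block repeated the fold changes of the fit without NrasG12D library 3. The count of the 10 called higher ran from 0 to 10 when each library was left out in turn, and it was 10 only without NrasG12D library 3. It was 9 with a weight per library, which gave library 3 the lowest weight (0.278). The count was 0 under the other pseudocounts, filters, scalings and robust limma. Over all genes, leaving out a library moved the calls from 3 to 2043 higher and from 0 to 2200 lower. The weights gave 2428 higher and 2642 lower, quantile normalization 63 and 165, equal column totals 182 lower, and a pseudocount of 0.1 63 lower, against 29 higher and 99 lower. With the replicate number as a block, 10 of the 10, 1892 of all genes higher and 2271 lower passed. Library 3 has no partner in that fit and adds nothing to its differences. Deviations from the group mean had correlations across genes of -0.19 and -0.0035 for same-numbered libraries. With 2 Cux1-low libraries, the deviations of library 1 are those of library 2 with the sign reversed. These correlations therefore cannot show whether the numbers pair the libraries. The cause of these shifts was not tested. With 2 Cux1-low libraries the spread of that group is poorly known. Whether depth limits these comparisons was not tested.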
